A study of Homo sapiens with 6 samples.

Results

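A pair of gene clusters on chromosomes 19 and 9 encodes nearly the same microRNAs (miRNAs), miR-23, miR-27 and miR-24. Their 6 hairpins were taken by name from a table of 147 miRNA hairpins: hsa-mir-23a, hsa-mir-27a and hsa-mir-24-2 of cluster a, and hsa-mir-23b, hsa-mir-27b and hsa-mir-24-1 of cluster b (written without hsa- from here on). The hairpins were read in HCT116 DICER-KO cells, a human colorectal carcinoma line that lacks its own DICER. All samples of both groups carry that knockout and differ in the plasmid put back with Lipofectamine 3000: pXG-DICER-WT, which encodes full-length DICER (3 samples), or pXG-DICER∆Helicase, which encodes DICER without its helicase domain (3 samples, DICER-delHelicase in the table). RNA was taken 48 h after transfection, so the enzyme came from a transient plasmid and not from the cells' own gene. The sources used here do not say whether the knockout line is 1 clone. The table holds 1 variation score per hairpin and construct, without replicates or depth, so no difference below has a replicate check and no test between the constructs was possible. The sources used here give no formula for it.

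DICER cuts a precursor miRNA (pre-miRNA) near its loop, which releases a duplex of the 5′ arm (5p) and the 3′ arm (3p). The cut sets the 5′ end of the 3p strand, and with it the seed, the bases 2 to 8 that a miRNA uses to find its target messenger RNAs. DICER is also known for a loop-counting rule, by which its cut is most uniform where a loop or bulge lies 2 nucleotides away. In both clusters the 3p strand is the main product. miR-23 and miR-27 are known for roles in blood vessel growth, miR-27 also in fat cell differentiation, and miR-24 in the control of cell division.

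The mature 3p sequences are shown because each cluster supplies a version of each of the 3 miRNAs, with the same seed. They are RefSeq sequences (GRCh38.p14), 5′ to 3′, with the seed in capitals. All 6 hairpins matched RefSeq, and each deposited hairpin contained its RefSeq hairpin with 10 more nucleotides on either side.
miR-23a-3p: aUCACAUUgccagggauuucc
miR-23b-3p: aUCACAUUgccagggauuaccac
miR-27a-3p: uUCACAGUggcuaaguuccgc
miR-27b-3p: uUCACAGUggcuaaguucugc
miR-24-3p: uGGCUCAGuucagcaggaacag
The mature miR-24-3p from mir-24-1 and mir-24-2 is identical. Counted from the 5′ end of the 3p strand, miR-23b-3p first departs from miR-23a-3p with U19A (cluster a first), and miR-27b-3p from miR-27a-3p with C19U. Both departures lie outside the seed. Around the 3p start the mir-23 hairpins share 20 nucleotides in a row, the mir-27 hairpins 20 and the mir-24 hairpins 27. Reads that stay inside those stretches could come from either cluster. The sources used here do not say how the authors assigned them.

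The pre-miRNAs differ mostly between the arms, and for this reason the mir-23 and mir-27 precursors are shown from the first base of 5p to the last base of 3p. Capitals mark the nucleotides between the annotated arms.
pre-mir-23a: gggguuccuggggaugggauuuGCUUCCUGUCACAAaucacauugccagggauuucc
pre-mir-23b: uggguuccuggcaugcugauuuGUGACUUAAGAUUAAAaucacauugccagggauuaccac
pre-mir-27a: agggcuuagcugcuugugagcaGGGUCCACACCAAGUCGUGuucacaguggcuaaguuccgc
pre-mir-27b: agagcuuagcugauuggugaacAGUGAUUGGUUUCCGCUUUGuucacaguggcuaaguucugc
For mir-24 the apical part alone is shown, with 4 bases of each arm in lower case.
mir-24-2: acagUUGGUUUGUGUACACuggc
mir-24-1: caguUCUCAUUUUACACACuggc
The stretch between the arms was identical at 8 of 17 aligned positions for mir-23, 10 of 27 for mir-27 and 10 of 16 for mir-24. The 5p arms were identical at 18 of 23, 18 of 23 and 19 of 23 aligned positions. The mir-23b stretch had the lowest G and C content of the 6, at 25%, against 50% in mir-23a.

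Cluster a lies on the minus strand of chromosome 19 (GRCh38). There mir-23a spans 13836587 to 13836659, mir-27a spans 13836440 to 13836517 and mir-24-2 spans 13836287 to 13836359. In GENCODE release 29 all 3 lie inside an exon of a non-coding RNA gene typed as antisense. Cluster b lies on the plus strand of chromosome 9, where mir-23b spans 95085208 to 95085304, mir-27b spans 95085445 to 95085541 and mir-24-1 spans 95086021 to 95086088. Its hairpins lie in introns of the protein-coding gene C9orf3, and mir-24-1 is also inside a UTR exon of 1 C9orf3 transcript typed as nonsense-mediated decay. The hairpin of MIR3074 is annotated on the opposite strand over mir-24-1. The order along the transcript is the same in both clusters, miR-23 first and miR-24 last, as the map of the clusters shows.

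**Figure D1:**
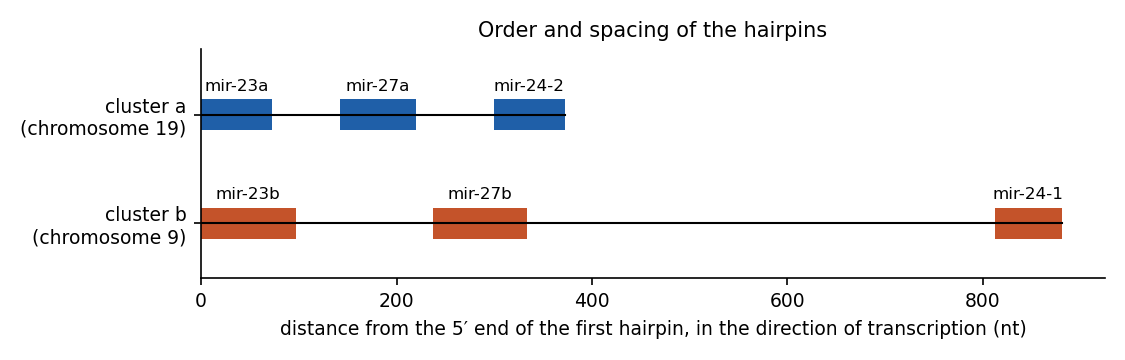
Position of the 6 hairpins (boxes) along their clusters, as the distance in nucleotides from the 5′ end of the first hairpin, in the direction of transcription. Cluster a spans 373 nucleotides and cluster b 881, mainly because 479 nucleotides separate mir-27b from mir-24-1.

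With full-length DICER all 6 hairpins had low variation scores. Every score was under 0.05, where 40.1% of all 147 hairpins lie, and the main 5′ end with DICER-WT was at offset 0 in all 6 (95.2% of all hairpins). An offset of 0 is read here as no shift of the main end from a reference position, whose definition the header does not give. The median DICER-WT score was 0.00661 over the 6 hairpins and 0.0804 over the table. The lowest of the 6 was mir-27a with 0.00168, at place 13 from the bottom of the table, and the highest was mir-23b with 0.0305, at place 47. The order from low to high was mir-27a, the mir-24 copies, mir-27b, mir-23a and mir-23b. Because there is no spread over samples, no pair of neighbours in that order can be said to differ.

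Without the helicase domain the score was higher in 5 of the 6 hairpins, beside 72.1% of all hairpins. The members' share is close to this background. The median change, delHelicase minus WT, was 0.0116 over the 6 hairpins against 0.0261 over all hairpins. An increase of at least 0.1 was found in 1 of the 6, mir-23b, beside 37.4% of all hairpins. On a relative scale, log2 of the ratio after adding 0.001 to each score, the median was 1.35 for the 6 and 0.91 for all. Both comparisons came out otherwise among hairpins that also started low. Over the 53 other hairpins with a DICER-WT score under 0.05 the median change was 0.00524, below that of the 6, and the median log2 ratio 1.38, about equal to theirs. On the log2 scale the score at least doubled in 3 of the 6 (mir-23b and both mir-24 copies, which are nearly 1 measurement), beside 46.3% of all hairpins and 55.9% of the 59 with a DICER-WT score under 0.05. With 0.01 added to each score in place of 0.001, only mir-23b of the 6 doubled, beside 37.4% of all hairpins. Under 0.05 with DICER-delHelicase were 5 of the 6 hairpins, beside 32.0% of all, but all 6 had started under 0.05. The median delHelicase score was 0.0152 over the 6 and 0.0137 over the 53 other hairpins that started under 0.05. Over all hairpins it was 0.146. The order of the delHelicase scores from low to high was mir-27a, mir-27b, the mir-24 copies, mir-23a and mir-23b. There mir-27b and the mir-24 copies changed places, but neighbours in this order, too, cannot be said to differ.

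**Figure D2:**
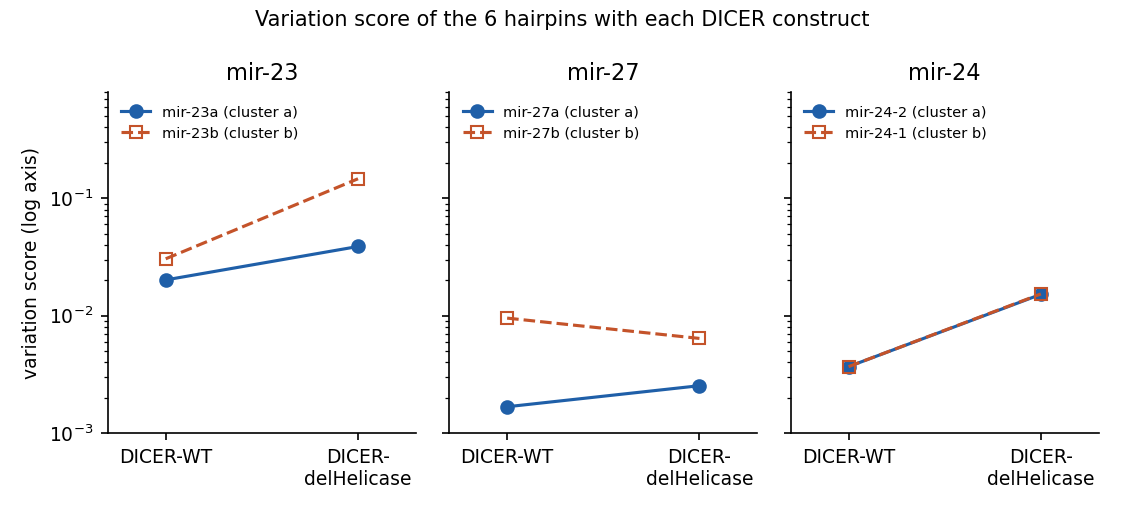
Variation score (log axis) of each hairpin with DICER-WT and DICER-delHelicase, 1 panel per miRNA, cluster a as filled circles and cluster b as open squares; each point is the authors' single value, with no error. The mir-23b line rises most, from 0.0305 to 0.146, the mir-27 lines run in opposite directions, and the mir-24 lines lie on top of each other.

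The miR-23 hairpins held the highest scores of the clusters and the widest gap in change between paralogues. The score of mir-23a went from 0.0201 under DICER-WT to 0.0388 under DICER-delHelicase, a change of 0.0186. That of mir-23b went from 0.0305 to 0.146, a change of 0.116. With full-length DICER mir-23b thus stood 1.51 times as high as mir-23a, and without the helicase domain 3.77 times. The delHelicase score of mir-23b was the exact middle value of the table, place 74 of 147, whereas its DICER-WT score was in the lower part. By change it was at place 49 from the top, between mir-29a (0.114) and mir-4664 (0.124). Among the 59 hairpins with a DICER-WT score under 0.05, mir-23b had the change at place 8 from the top and mir-23a at place 21. By log2 ratio they were at places 11 and 34 of the same 59.

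The miR-27 hairpins stayed near 0 with both constructs and moved in opposite directions. The score of mir-27a went from 0.00168 under DICER-WT to 0.00253 under DICER-delHelicase, a change of 0.000856. That of mir-27b went from 0.00953 to 0.00640, a change of -0.00313, and it was the 1 hairpin of the 6 with a lower score. Lower scores were found in 25.9% of all hairpins. Both changes are small next to the table's median change of 0.0261, and neither has a replicate check. The score of mir-27b was 5.68 times that of mir-27a with DICER-WT and 2.53 times with DICER-delHelicase. Cluster b had the higher score of the pair with either enzyme, for miR-23 as for miR-27.

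The miR-24 copies had nearly the same scores. For mir-24-2 it went from 0.00368 under DICER-WT to 0.0152 under DICER-delHelicase, a change of 0.0115. For mir-24-1 it went from 0.00368 to 0.0153, a change of 0.0116. The gap between the copies was 4.75e-07 under DICER-WT and 0.000121 under DICER-delHelicase. Their ratios of delHelicase to WT were 4.12 and 4.16, next to 4.80 for mir-23b, 1.93 for mir-23a, 1.51 for mir-27a and 0.672 for mir-27b. The table holds 16 miRNAs with several hairpins. In 3 of them the copies had identical scores with both constructs, and of the remaining 13 miR-24-3p had the smallest difference of change between copies. That place holds for score differences, which are small where scores are near 0. The log2 ratios of the mir-24 copies, 1.789 and 1.800, lay farther apart than those of several other copies. Among these were the mir-320c copies (1.087 and 1.084) and the mir-103a copies (2.722 and 2.725). The shared stretch of 27 nucleotides covers all 22 bases of miR-24-3p and 4 bases before its start. A 3p read that starts up to 4 bases early thus cannot be told apart between the mir-24 copies. These copies are therefore better read as 1 measurement than as 2.

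**Figure D3:**
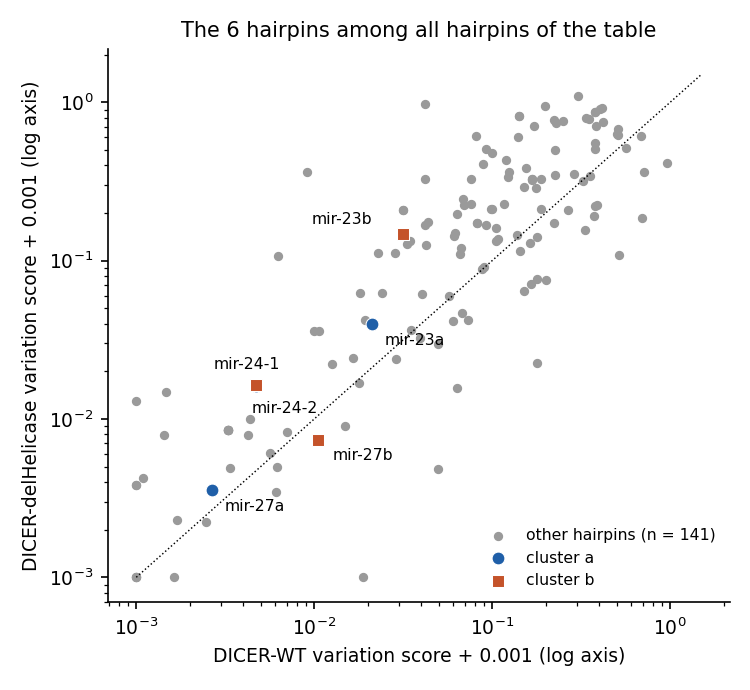
Variation score with DICER-WT (x axis) and DICER-delHelicase (y axis), each plus 0.001 and on a log axis, for the 6 hairpins in colour and the 141 other hairpins in grey; the dotted line marks equal scores. The 6 hairpins lie in the lower left part, mir-27b under the line and the others above it; mir-24-2 lies under the mir-24-1 square.

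The hairpins outside the 6 that were closest to each in both scores were found by distance on the log10(score + 0.001) scale, over the 2 constructs only. For mir-23b they were mir-92b (0.0334 and 0.132, DICER-WT first) and mir-374a (0.0324 and 0.125). For mir-23a they were mir-200c (0.0183 and 0.0414) and mir-197 (0.0230 and 0.0611). For mir-27b they were mir-3177 (0.0138 and 0.00809) and mir-7974 (0.00600 and 0.00733), and for mir-27a they were mir-221 (0.00237 and 0.00391) and mir-148b (0.00147 and 0.00124). For mir-24-1 they were mir-7706 (0.00334 and 0.00906) and mir-25 (0.00326 and 0.00693). None of these is a relative by seed: outside the 6, no matched hairpin of the table had the seed of miR-23, miR-27 or miR-24.

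The difference between paralogues was set beside that of other families in the table. Pairs were made of hairpins with the same number and a different letter, with 1 copy (the first by name) for each lettered member. This gave 35 pairs from 14 families, of which mir-30 alone held 10 and let-7 and mir-320 held 6 each. They included mir-23a with mir-23b and mir-27a with mir-27b. The difference of change was 0.0971 for mir-23 (b minus a), and 47.1% of the other pairs differed by more. For mir-27 it was -0.00399, and 88.2% differed by more. The median size over all pairs was 0.0915. The 3 largest all involved let-7e: 0.982 for let-7d with let-7e, 0.848 for let-7e with let-7f-1 and 0.703 for let-7a-1 with let-7e. On the log2 scale the differences were 1.31 for mir-23 and -0.91 for mir-27, with a median size of 0.91 over the pairs. There 29.4% of the other pairs differed by more than mir-23 and 47.1% by more than mir-27. The direction differed within 7 of the 35 pairs, mir-27 among them. With 1 median per family on the log2 scale mir-23 was at place 2 of the 14 families, behind let-7, and mir-27 at place 5; on the score scale they were at places 7 and 12. Where mir-23 stands among the families thus differs with the scale.

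**Figure D4:**
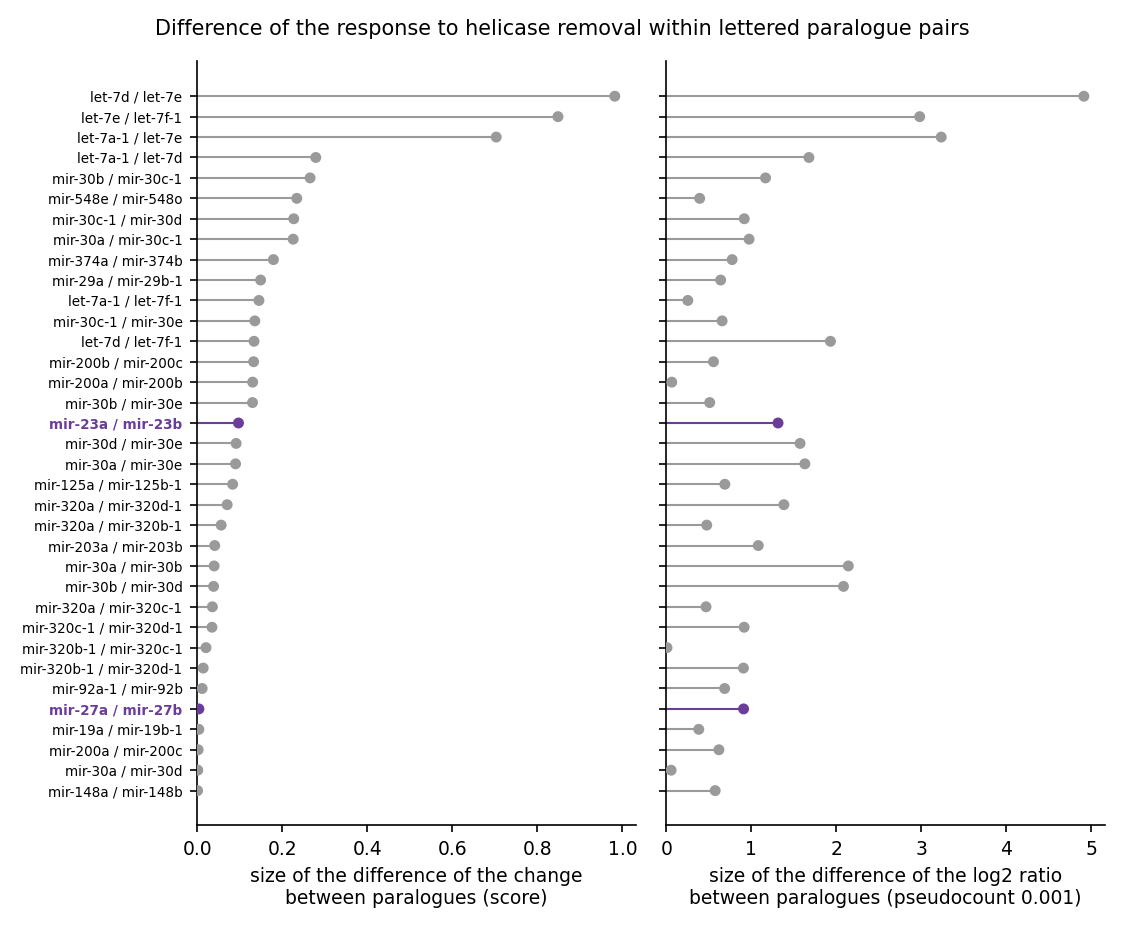
Size of the difference of change between the members of each of 35 lettered paralogue pairs, as a difference of scores (left) and of log2 ratios with 0.001 added (right), ordered by the left panel; each point is 1 pair, with no error. The mir-23 pair (0.0971 and 1.31) lies near the middle of that order, and the mir-27 pair (-0.00399 and -0.91, drawn by size) near its lower end. By size of the log2 difference the mir-27 pair is at place 17 of the 35.

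The table also sorts hairpins into a Yes or No class headed 2-nt, per its header derived from the DICER-WT products and not defined further. Of the 6 hairpins mir-23b, mir-27a, mir-24-1 and mir-24-2 were in class Yes (4 of 6, beside 49.7% of all hairpins), and mir-23a and mir-27b in class No. The class thus differed within the miR-23 pair and within the miR-27 pair, in opposite clusters. With its sign kept, the change was higher in the hairpin of class Yes in both pairs, mir-23b (0.116 against 0.0186) and mir-27a (0.000856 against -0.00313). By size, mir-27b of class No changed more than mir-27a. Over the whole table the medians went the other way, 0.0115 for class Yes and 0.0549 for class No.

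The minimum free energy folds of the pre-miRNAs differed beside the cut within each of the 3 paralogue pairs. The first base of 3p was paired in all 6 minimum free energy folds. The number of paired bases between that base and the nearest unpaired base of the same strand on its loop side was 2 in mir-23b, mir-27a and mir-24-1. It was 3 in mir-23a, mir-27b and mir-24-2. That spacing was less certain in mir-27b and mir-24-2, where it made up 38.5% and 38.3% of all predicted folds. Class Yes therefore went with a spacing of 2 and class No with a spacing of 3 in 5 of the 6 hairpins. The exception was mir-24-2, which shares its mature sequence with mir-24-1 and whose predicted loop is closed by a single isolated base pair. Outside the 6 hairpins, 119 others had a RefSeq 3p sequence in their deposited hairpin and an offset of 0. Of these, 47 of 58 in class Yes had a spacing of 2 (81.0%), and 3 of 61 in class No (4.92%). A spacing of 3 was found in 1 of 58 in class Yes (1.72%) and 22 of 61 in class No (36.1%). This comparison was chosen after the values were seen and is given as a description. The header does not say whether the class was itself drawn from predicted folds. Copies of 1 miRNA with identical or nearly equal scores could differ in class and in spacing. Examples are mir-548o (No, 8) and mir-548o-2 (Yes, 2), and mir-103a-1 (Yes, 2) and mir-103a-2 (No, 3). Class differed at the same spacing of 2 in mir-101-1 (Yes) and mir-101-2 (No). The match of the class with spacing may be partly built in, and how the class was made was not tested.

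**Figure D5:**
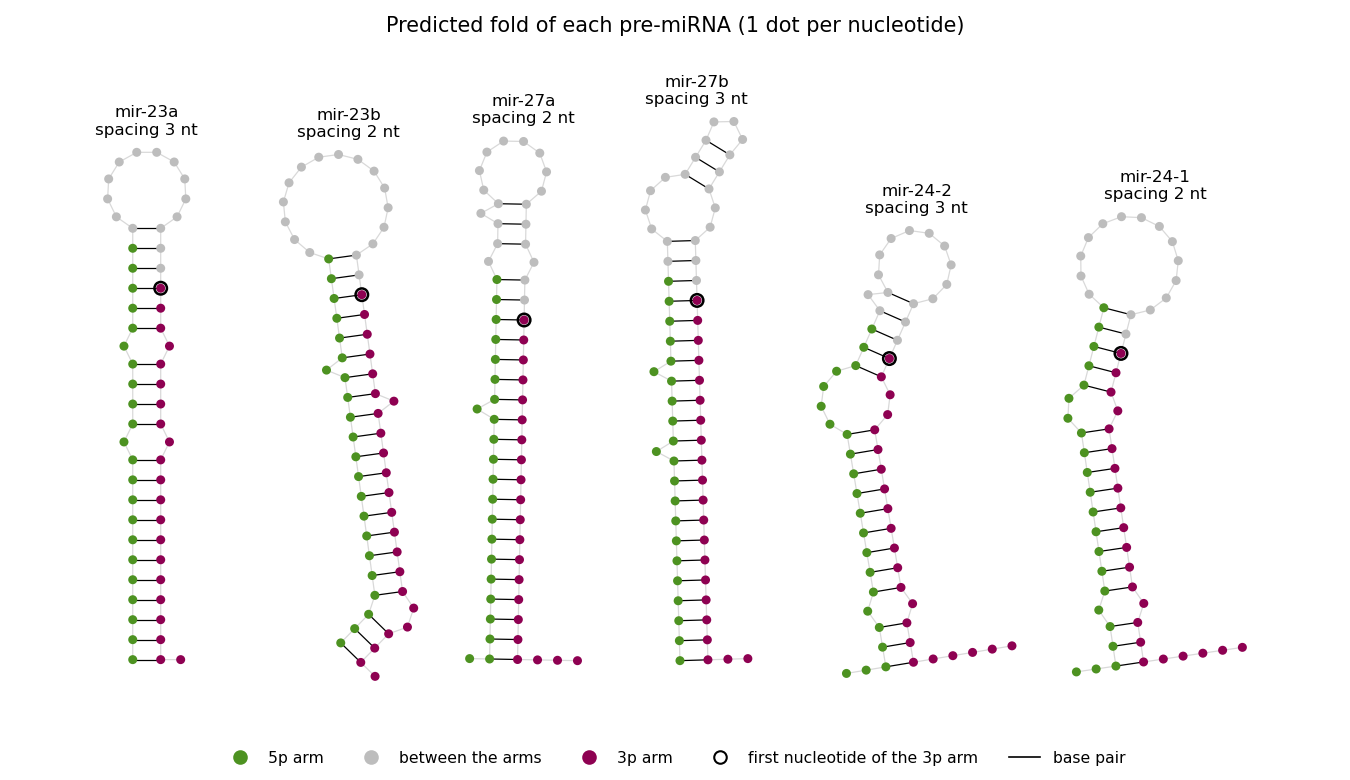
Minimum free energy fold of each pre-miRNA, 1 dot per nucleotide, with base pairs as black lines, the arms in colour and the first base of 3p circled; spacing is the number of paired bases between the circled base and the nearest unpaired base on its loop side. It is 2 nt in mir-23b, mir-27a and mir-24-1 and 3 nt in mir-23a, mir-27b and mir-24-2.

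The loops themselves differed as well. The predicted terminal loop held 14 unpaired bases in mir-23b and 10 in mir-23a, 13 in mir-24-1 and 9 in mir-24-2. It held 8 in mir-27a and 3 in mir-27b, where the unpaired base nearest to the 3p start belongs to an internal loop and not to the terminal one. In mir-27a, too, the nearest unpaired base lies in an internal loop, a single mismatch. The fold shown made up 57.2% of the predicted ensemble for mir-23a and 57.3% for mir-24-1, but 13.2% for mir-27a, 10.2% for mir-24-2, 9.48% for mir-23b and 3.47% for mir-27b, so for the last 4 it stands for a small share of the ensemble. The spacing was the same 2 or 3 in the fold of the whole deposited hairpin for all 6. Over the whole ensemble of each pre-miRNA, a spacing of 2 made up 99.1% for mir-27a, 89.3% for mir-24-1 and 75.3% for mir-23b. A spacing of 3 made up 91.5% for mir-23a, but 38.5% for mir-27b, with 29.8% at a spacing of 2, and 38.3% for mir-24-2, with 10.6% at a spacing of 2. The spacing of 3 is therefore the less certain one in mir-27b and mir-24-2. The probability that the first base of 3p was paired was at least 0.987 in 5 hairpins and 0.808 in mir-24-2. These are computed folds of naked RNA, and the part of any of these features in the scores was not tested.

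A change of the 3p start changes the seed, and for miR-27 a shifted seed belongs to another miRNA of the table. Read from 1 base further downstream, miR-27a-3p and miR-27b-3p would have the seed CACAGUG, which is that of miR-128-3p, shown here with its seed in capitals.
miR-128-3p: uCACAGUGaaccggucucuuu
The same shift in miR-23 gives CACAUUG and in miR-24 GCUCAGU, and neither is the seed of a matched miRNA of the table (136 of 147 hairpins were matched). The miR-128 hairpins, which make the same mature miRNA, had low scores, as mir-27a and mir-27b had. The scores were 0.000428 and 0.00695 for mir-128-1, DICER-WT first, and 9.41e-05 and 0.00323 for mir-128-2. Their changes were 0.00652 and 0.00314, next to 0.000856 for mir-27a and -0.00313 for mir-27b. Their log2 ratios were 2.48 and 1.95, next to 0.40 for mir-27a and -0.51 for mir-27b. The added 0.001 exceeds both miR-128 scores with DICER-WT, so the size of the miR-128 log2 ratios depends on it. The table does not say in which direction the ends of any of these miRNAs varied.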

How the data were processed

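Small RNAs of 6 samples were sequenced, 3 per construct. Per the labels' protocols, 10 µg of total RNA gave the small RNAs by way of a 12% urea gel. The submitters' processing notes name cutadapt, Bowtie2, bedtools and GRCh38, without order or settings. The authors deposited 294 lines, 1 variation score per hairpin and construct. Per the file headers the score is a global variation, with no formula, and a second score column holds the main DICER-WT 5′ end. The depth is unknown, and how the 3 samples were combined is not given.

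The change of a hairpin is its delHelicase score minus its WT score, and log2 ratios used a pseudocount of 0.001. Folds were computed with ViennaRNA 2.7.2 and alignments with Biopython 1.88. Named were the 6 members, the 2 hairpins nearest to each miRNA of the clusters, the 3 paralogue pairs that differed most, and the hairpins beside mir-23b by change. mir-128 and the spacing before 3p were added after their values were seen. The members and lists were chosen with earlier results of these data known. Ranks and pairs were tested on simulated data. Alternatives tried were the mean, 1 value per miRNA, leaving out each hairpin, a minimum change of 0.01, log2 ratios with pseudocounts of 0.0001, 0.001 and 0.01, other sets of hairpins or pairs, and the fold of the whole hairpin. Ensemble shares of a spacing came from partition functions with and without that constraint.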

Additional observations from a re-analysis of the deposited data

How the results depend on the processing

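No paired analysis was possible because no score belongs to a single sample; leaving out replicates was not possible either. Of 77 alternative values, none changed direction, but the counts and percents among them have no sign to change. Within 1.5 times the value they were set against stayed 64; a log2 ratio with pseudocount 0.001 was held to the sign of the score difference only, and other pseudocounts were held to that ratio. The median change of the 6 hairpins, 0.0116, became 0.0259 as a mean; without any single hairpin it lay between 0.0115 and 0.0116. With a pseudocount of 0.01 the log2 ratios became 0.10 for mir-27a, -0.25 for mir-27b, 0.88 for mir-24-2 and 0.89 for mir-24-1, and the differences between paralogues to -0.35 for mir-27 and 0.00696 for mir-24, since that pseudocount exceeds these DICER-WT scores; 1 hairpin in place of 3 then doubled. On the log2 scale, a choice made after the table was seen, 29.4% of other pairs differed by more than mir-23 (7.69% with 1 median per family) and 47.1% by more than mir-27 (30.8%); the cause was not tested. Among hairpins with a DICER-WT score under 0.05, likewise chosen later, 10.2% had a smaller change than mir-27b, against 21.8% of all. This percent was 64.4% against 46.3% for mir-23a, 57.6% against 43.5% for mir-24-2 and 59.3% against 44.2% for mir-24-1. Each of these hairpins thus passed from below the middle to above it. For mir-23b it was 86.4% against 66.7%, and for mir-27a 28.8% against 29.3%. With no depth given, scores near 0, as those of mir-27 and mir-24, have no known precision.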
